A study of Mus musculus with 55 samples.

Results

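The genes described here are 9 genes of mature oligodendrocytes, Mbp, Mog, Mag, Mobp, Cnp, Mal, Opalin, Myrf and Ermn, which were chosen by name out of the 45318 gene identifiers in the tables. Punches of ventral dentate gyrus were taken from individual male mice of the C57BL/6J strain, and each library was 1 mouse except EE control mouse 9, whose 2 runs were summed. Mice were moved at 21 days of age into standard housing (SH), or into an enriched environment (EE), in which groups shared a large cage with tunnels, objects and running wheels, and lived there for 8 weeks. They were then either kept as unstressed controls or exposed for 10 days to chronic social defeat stress (CSDS) by CD-1 aggressors, and defeated mice were classed as resilient (RES) or susceptible (SUS) by the time they spent near another mouse in a social interaction test. Tissue was taken at about postnatal day 90. The 54 mice comprised 10 SH control, 7 SH RES, 10 SH SUS, 9 EE control, 9 EE RES and 9 EE SUS mice. The class of a defeated mouse was measured and not assigned, and EE differed from SH in group size, objects and running wheels at once, so these cannot be told apart.

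Oligodendrocytes wrap axons in myelin, a compacted stack of membrane that speeds conduction and is rich in a small set of proteins and in galactolipids. Mbp holds the inner faces of the membrane together, Mobp is a further small protein of the compacted sheath, and Mal is a membrane proteolipid that sorts lipids and proteins to it. Cnp lines the channels of cytoplasm left between the layers, Mag sits at the inner edge facing the axon, and Mog lies on the outermost surface. Ermn is a cytoskeletal protein of late oligodendrocytes, Opalin a transmembrane glycoprotein of mature oligodendrocytes, and Myrf the transcription factor that switches on the myelin genes. In the hippocampus myelin is sparse in the granule cell layer and denser in the hilus and in the fiber tracts around it. Bulk RNA cannot separate more oligodendrocytes from more myelin RNA in each.

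Sequence upstream of the start site was found in the RefSeq promoter table (GRCm38.p6) for 7 of the 9 genes, namely Mog, Mag, Mobp, Cnp, Mal, Opalin and Ermn. Shown here are the promoters of the 3 genes with the largest difference between EE and SH (Mobp, Ermn and Mag) and of the gene with the smallest (Opalin), read 5′ to 3′ on the gene's strand and cut where the annotated gene begins. They cover chr9:120149492-120149706 for Mobp (forward strand), chr2:58052865-58053114 for Ermn, chr7:30914874-30915113 for Mag and chr19:41077114-41077363 for Opalin (reverse strand). Capitals mark matches, on either strand, to ACAANG, a core recognised by SOX factors such as the lineage factor Sox10, or to CTGGNAC, the pattern searched here for Myrf. N stands for any base, so a match to the Myrf pattern need not be a form that Myrf recognises. No match to one motif overlapped a match to the other in these 4 windows.
Mobp: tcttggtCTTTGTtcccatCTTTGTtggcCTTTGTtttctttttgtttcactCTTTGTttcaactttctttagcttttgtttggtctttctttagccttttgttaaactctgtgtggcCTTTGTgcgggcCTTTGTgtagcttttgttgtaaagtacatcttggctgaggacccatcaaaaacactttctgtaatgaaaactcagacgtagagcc
Ermn: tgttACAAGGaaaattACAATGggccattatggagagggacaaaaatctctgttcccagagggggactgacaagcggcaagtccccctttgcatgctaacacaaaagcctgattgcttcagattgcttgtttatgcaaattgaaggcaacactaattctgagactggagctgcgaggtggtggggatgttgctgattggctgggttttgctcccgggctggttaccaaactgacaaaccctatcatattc
Mag: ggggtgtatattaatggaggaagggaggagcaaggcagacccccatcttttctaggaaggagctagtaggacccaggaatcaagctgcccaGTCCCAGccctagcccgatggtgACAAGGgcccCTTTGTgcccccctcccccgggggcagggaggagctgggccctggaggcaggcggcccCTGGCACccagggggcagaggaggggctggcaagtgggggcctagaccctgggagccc
Opalin: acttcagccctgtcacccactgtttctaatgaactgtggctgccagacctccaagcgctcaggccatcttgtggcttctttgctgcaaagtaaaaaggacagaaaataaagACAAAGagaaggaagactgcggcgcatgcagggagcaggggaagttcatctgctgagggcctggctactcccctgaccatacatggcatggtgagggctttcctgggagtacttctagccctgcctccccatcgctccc

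The Mobp window held 6 SOX matches, all in the form CTTTGT, whereas the windows of Ermn and Mag held 2 each and that of Opalin 1. A SOX match was present in 6 of the 7 windows of 215 to 250 bases, all but that of Mal, and in 36.3% of 32851 promoter windows of 250 bases. The Mag window held 2 matches to the Myrf pattern, GTCCCAG and CTGGCAC, at 159 and 68 bases from the start site. A match to this pattern was present in 3 of the 7 windows (Mag, Cnp and Mog) and in 16.1% of all windows. The E-box CAGCTG was in none of the 7 windows and in 13.0% of all windows. Such matches describe letters in a window, and whether a factor binds there was not measured.

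The 9 genes lie on 7 chromosomes. In GRCm38, Mbp spans bases 82475146 to 82585637 of chromosome 18, Mobp 120149707 to 120181484 of chromosome 9 and Cnp 100574904 to 100591729 of chromosome 11, all on the forward strand. On the reverse strand, Mal spans 127633226 to 127656695 and Ermn 58045113 to 58052864 of chromosome 2, Mag 30899176 to 30914873 of chromosome 7, Mog 37010743 to 37023398 of chromosome 17, Opalin 41061710 to 41077113 of chromosome 19, and Myrf 10208272 to 10240748 of the same chromosome. All are protein-coding. Cnp overlaps Dnajc7 and Ermn overlaps Galnt5 on the opposite strand, and the counts were strand-specific.

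All 9 genes were well detected in every mouse. Levels are given in CPM, that is, a gene's read pairs scaled to a common total over the tested genes, with library sizes adjusted by the TMM method. The total count per mouse was 16760009 to 45872357, with a median of 21552884, and the highest belonged to the mouse with 2 runs. Levels of different genes were compared per kilobase of exon. On that scale Mbp was the most abundant, at 64.8 ± 14.2 CPM per kb (SD, n = 54), followed by Cnp at 36.1 ± 6.46, Mobp at 33.4 ± 10.4 and Mal at 31.9 ± 7.92. The ranges of these 3 genes over mice overlapped widely. Mag stood at 14.3 ± 3.56 CPM per kb, Mog at 9.45 ± 2.45, Ermn at 7.35 ± 2.02 and Opalin at 2.47 ± 0.617. Myrf, the only transcription factor among them, was lowest at 0.620 ± 0.165 CPM per kb. The median count per mouse ran from 106 for Myrf and 154 for Opalin to 11007 for Mbp, so that counting error alone gives a coefficient of variation of 9.71%, 8.06% and 0.953%, respectively.

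Mice of the same group differed widely. Over all 54 mice, the highest exceeded the lowest by 2.11-fold for Mbp and by 4.02-fold for Opalin, with the other 7 genes between. In the group where it was largest, this fold was 2.02 for Cnp, 2.11 for Mbp, 3.03 for Opalin and 3.36 for Mobp. Within groups, the SD of log2 CPM was 0.28 for Mbp, 0.24 for Cnp and 0.40 for Mobp, the lowest and highest of these being those of Cnp and Mobp among the 9 genes. The plot of CPM by group shows this spread for each gene.

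**Figure D1:**
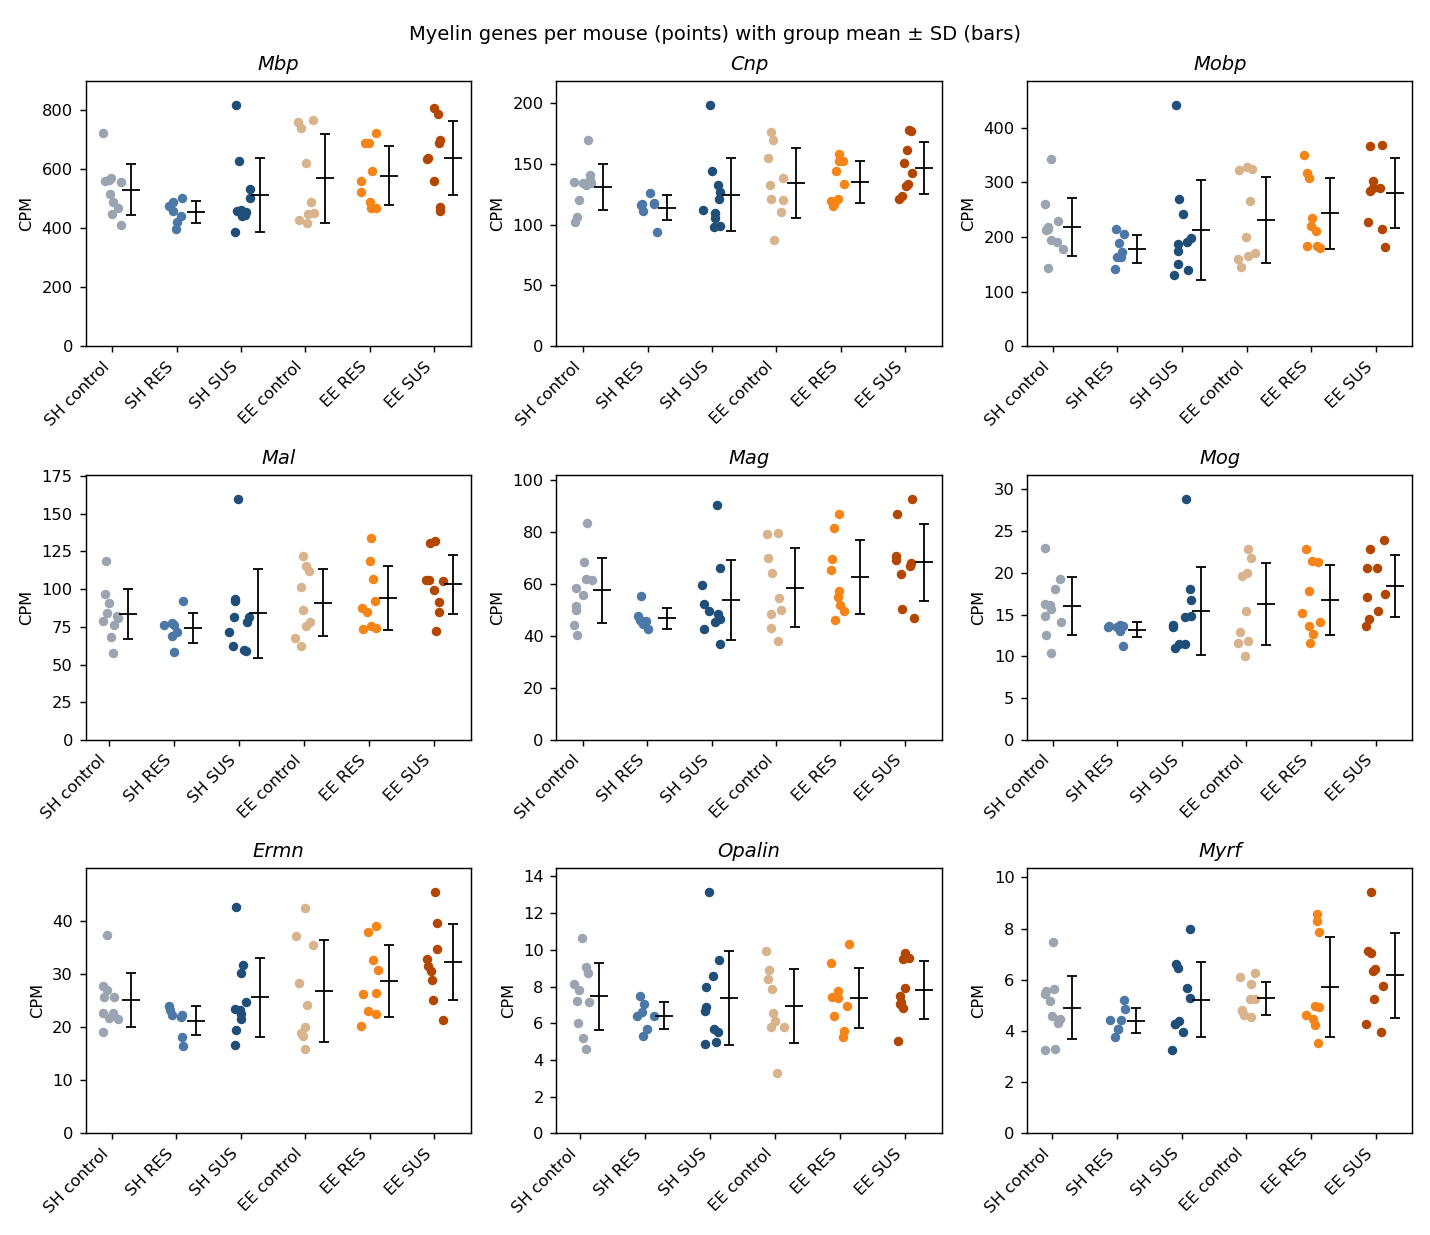
Level of each of the 9 myelin genes (CPM, linear axes from 0) in the 6 groups, with 1 point per mouse and a bar for the group mean ± SD. SH RES mice form the tightest group by SD for all 9 genes, and EE SUS mice have the highest mean for all 9.

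Whether housing altered the myelin genes was asked first over all phenotypes, as the mean of the 3 EE groups minus the mean of the 3 SH groups in the 6-group model. All 9 estimates were above 0, at log2 0.07 to 0.31 with a median of 0.25, while the median of all 18283 genes tested was 0.00. Mbp rose in EE and was the only 1 of the 9 called by edgeR's quasi-likelihood test at a Benjamini-Hochberg adjusted p below 0.05, where 2.42% of all genes were called. At an unadjusted p below 0.05, 8 of the 9 passed, all but Opalin, against 17.6% of all genes. The 9 genes were closely correlated over mice (median Pearson's r of 0.909 over pairs). Counts of genes that pass or share a sign, here and below, are therefore not counts of independent results. The mice overlapped for every gene. The adjusted p of Mbp lay close to the threshold, and it ran from 0.0116 to 0.0826 when each mouse was left out in turn, with the call lost in 38 of those 54 fits.

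Mbp ranged from 386 to 815 CPM over the 27 SH mice, with a median of 474, and from 419 to 806 CPM over the 27 EE mice, with a median of 593. Only 3 of 27 SH mice were above the EE median, and 19 of 27 EE mice were above the SH median. The fitted difference was log2 0.25 ± 0.07 (SE, adjusted p = 0.0468, edgeR). By group, the lowest, median and highest values of Mbp were 410, 536 and 722 CPM in SH control, 396, 459 and 501 in SH RES, and 386, 459 and 815 in SH SUS mice. In EE they were 419, 487 and 764 CPM in control, 467, 558 and 721 in RES, and 457, 636 and 806 in SUS mice. The lowest values were 386 to 419 CPM in the SH groups and EE control and 457 to 467 CPM in EE RES and EE SUS mice, and the ranges of all 6 groups overlapped.

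Mobp had the largest estimate. Its level was 131 to 441 CPM in SH mice (median 191) and 146 to 368 CPM in EE mice (median 236). The highest of all 54 values was in an SH SUS mouse, and 19 of 27 EE mice were above the SH median. The difference of log2 0.31 ± 0.11 (SE) came with an adjusted p of 0.0977 in edgeR. Ermn ranged from 16.5 to 42.5 CPM in SH and from 15.9 to 45.3 CPM in EE mice, with 20 of 27 EE mice above the SH median. Its difference was log2 0.29 ± 0.09 (SE, edgeR adjusted p = 0.0765). Mag, which was at 36.8 to 90.5 CPM in SH and 38.2 to 93.0 CPM in EE mice, had medians of 49.6 and 64.3 CPM. Its log2 difference was 0.27 ± 0.08 (SE, edgeR adjusted p = 0.0706), and 22 of 27 EE mice were above the SH median.

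The other 5 genes gave log2 differences of 0.25 ± 0.09 (SE) for Mal, 0.24 ± 0.09 for Myrf, 0.21 ± 0.09 for Mog, 0.17 ± 0.06 for Cnp and 0.07 ± 0.10 for Opalin. Their adjusted p in edgeR was 0.0906, 0.155, 0.210, 0.128 and 0.770. Opalin, at 4.60 to 13.1 CPM in SH and 3.27 to 10.3 CPM in EE mice, had medians of 6.86 and 7.38 CPM, and 17 of 27 EE mice were above the SH median. Myrf had 3 EE mice above the highest SH mouse, the most of any of the 9 genes, at a counting error larger than that of the other 8.

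The same contrast was made within each phenotype, with the 3 comparisons resting on different mice. Among defeated mice the estimates were larger than among controls. Between EE RES and SH RES mice they ran from log2 0.20 (Opalin) to 0.45 (Mobp) with a median of 0.34, and 7 of 9 had an unadjusted p below 0.05, as had 16% of all genes. The smallest was that of Mag, at log2 0.42 ± 0.16 (SE, p = 0.0092, edgeR adjusted p = 0.161). None of the 9 was called there, and 0.273% of all genes were. Between EE SUS and SH SUS mice the estimates were log2 0.08 to 0.40 with a median of 0.30, 6 of 9 had an unadjusted p below 0.05 (7.36% of all genes), and none was called (0.00547% of all genes), the smallest adjusted p in edgeR being 0.549. Between unstressed EE and SH mice they were log2 -0.08 (Opalin) to 0.13 (Mal) with a median of 0.09, none had an unadjusted p below 0.05 (5.02% of all genes did), and none was called, against 0.00547% of all genes. The plot of housing differences by phenotype shows these estimates with their errors.

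**Figure D2:**
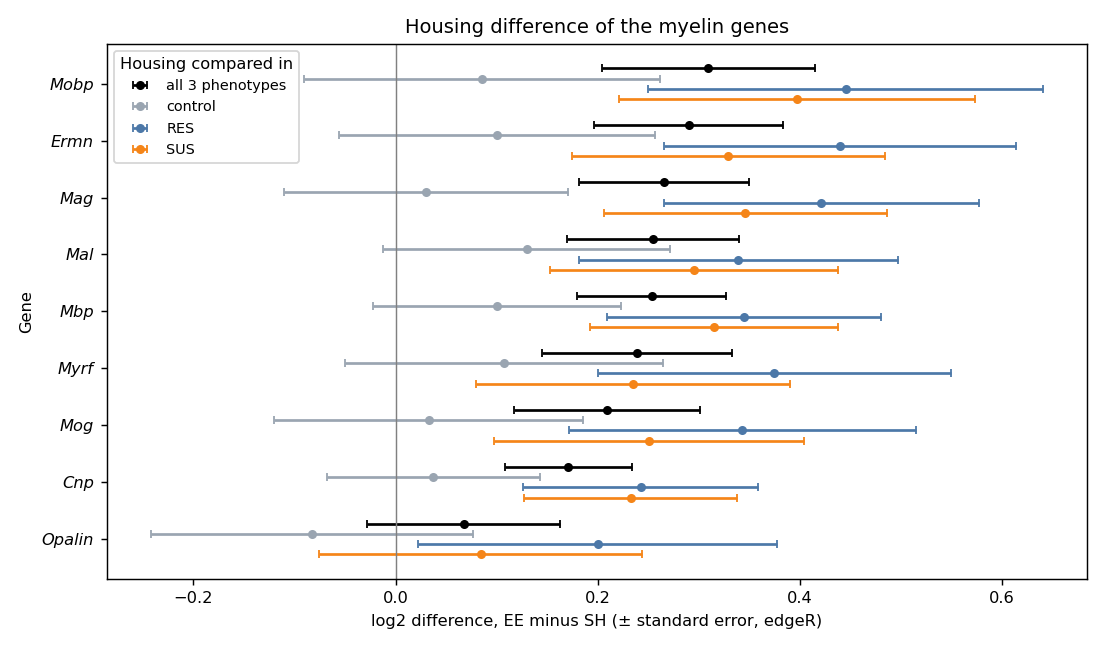
Difference in log2 expression between EE and SH mice for each of the 9 myelin genes (edgeR estimate ± SE), over all phenotypes and within control, RES and SUS mice. Estimates for RES and SUS mice lie to the right of those for control mice for all 9 genes, with error bars that overlap for many of them.

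Whether the effect of defeat differed between the housings was tested directly as an interaction. The estimates were above 0 for all 9 genes, at log2 0.19 (Mal) to 0.35 (Mag) with a median of 0.23. None was called, nor was any other gene (0%), and Mag alone had an unadjusted p below 0.05 (log2 0.35 ± 0.18 SE, p = 0.0486, edgeR adjusted p = 0.756), as had 6.47% of all genes. The difference between defeated and control mice in the size of the housing effect thus did not pass the test for any of the 9 genes. For Mbp the interaction was log2 0.23 ± 0.15 (SE, edgeR adjusted p = 0.788).

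Defeat itself did not give a call. Over both housings the defeated minus control estimates were split, with 4 above and 5 below 0, a range of log2 -0.04 to 0.07 and no unadjusted p below 0.05 (4.81% of all genes), and none was called (0.0438% of all genes). In SH, RES mice had lower estimates than controls for all 9 genes, at log2 -0.30 (Mag) to -0.15 (Myrf) with a median of -0.22, yet the smallest unadjusted p in edgeR was 0.0564 (Mag) and none was called, as for all genes (0%). SH SUS mice differed from SH controls by log2 -0.10 to 0.09, with no call among the 9 and 0.0328% of all genes called. In EE, differences from EE controls ran from log2 0.00 to 0.11 in RES and from 0.12 to 0.27 in SUS mice, again with no call among the 9 or among all genes (0%) and no unadjusted p below 0.05 among the 9. The 2 contrasts within a housing share its control mice.

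SUS mice had higher estimates than RES mice for all 9 genes over both housings, at log2 0.12 (Cnp) to 0.23 (Mobp) with a median of 0.16. The smallest unadjusted p in edgeR was 0.0653 (Ermn), and no gene was called in this contrast (0%). The estimates were log2 0.13 to 0.27 in SH and 0.08 to 0.20 in EE mice, and the difference between the housings in this contrast was log2 -0.14 to -0.01, with no call in any of these 3 comparisons (0% of all genes). In the test of any difference among the 6 groups, Mbp, Mag, Ermn and Mobp had unadjusted p-values of 0.0145, 0.0194, 0.0245 and 0.0386 (edgeR). An unadjusted p below 0.05 was found there for 11.1% of all genes. The adjusted p in edgeR was 0.310 to 0.938 over the 9 genes, and none was called, against 0.35% of all genes. In each of these comparisons, that is, all but the one of the housings over all phenotypes, limma and DESeq2 also called none of the 9.

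To set the groups on 1 scale, each gene's log2 CPM was turned into a z-score over the 54 mice and the 9 z-scores were averaged per mouse. This score was lowest in SH RES mice, at -0.698 ± 0.290 (SD, n = 7), followed by SH SUS at -0.234 ± 1.09 (n = 10), SH control at -0.0856 ± 0.782 (n = 10), EE control at 0.0125 ± 1.08 (n = 9), EE RES at 0.238 ± 0.877 (n = 9) and EE SUS at 0.648 ± 0.814 (n = 9). Each step in this order was smaller than the SD of at least 1 of the 2 groups it joins. SH RES mice were all below 0, between -1.26 and -0.440, while every other group held mice on both sides of 0. Of the 10 mice with the highest score, 3 were EE control, 3 EE RES, 2 EE SUS, 1 SH control and 1 SH SUS. Of the 10 with the lowest, 3 were SH SUS, 3 EE control, 2 SH control and 2 SH RES. EE control mice were thus at both ends, and no defeated EE mouse was among the 10 lowest.

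The extreme mice were extreme for nearly every gene. SH SUS mouse 3, SH control mouse 10 and EE SUS mice 1 and 6 were among the 10 highest for each of the 9 genes. SH SUS mouse 3 had the highest score, 2.23, and the highest level of Mbp, Mobp, Cnp, Mal, Mog and Opalin of all mice. At the other end, EE control mouse 8, SH SUS mice 2 and 10 and SH control mouse 2 were among the 10 lowest for 8 of the 9 genes. Without SH SUS mouse 3, edgeR called 6 of the 9 genes higher in EE over all phenotypes in place of 1, and the share of all genes called rose from 2.42% to 4.02%. The heat map of z-scores shows how the genes move together from mouse to mouse.

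**Figure D3:**
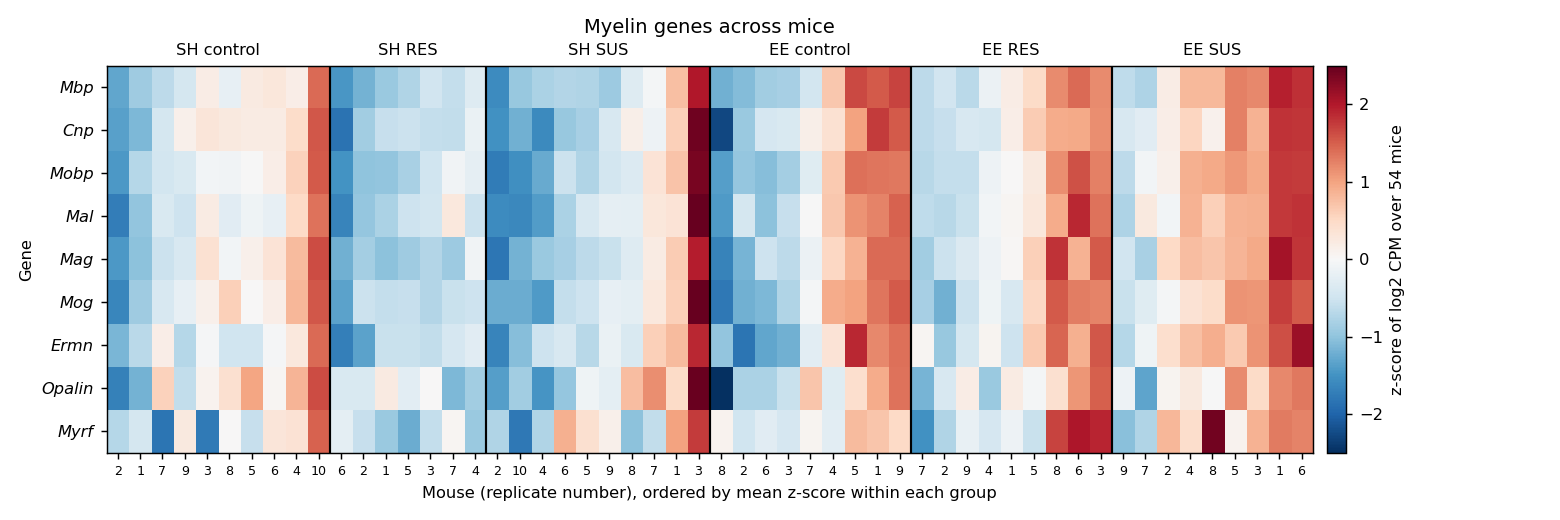
Heat map of the z-score of log2 CPM over 54 mice for the 9 myelin genes (rows), with 1 column per mouse ordered by its mean z-score within each group and colors limited to ±2.5. Columns are mostly of 1 color from top to bottom, Opalin and Myrf departing from the other 7 genes most often, and SH RES columns are nearly all below 0.

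The 9 genes were correlated over the 54 mice in all 36 pairs. Pearson's r ran from 0.478 to 0.977 with a median of 0.909, and Spearman's rho from 0.495 to 0.969 with a median of 0.896. The closest pair was Mobp and Mal (r = 0.977, rho = 0.969) and the loosest Opalin and Myrf (r = 0.478, rho = 0.495). For that pair the permutation p was 0.00029 for r and 0.00021 for rho, both unchanged by adjustment over the 36 pairs, and for each other pair it was 1e-05, the smallest that 100000 permutations can give. Without Opalin and Myrf, the 21 remaining pairs had r of 0.868 to 0.977. Pairs with Opalin had a median r of 0.782 and pairs with Myrf of 0.685. Opalin and Myrf also had the fewest counts, and whether that lowered their r was not tested. Leaving out the 2 mice farthest from the median score (SH SUS mouse 3 and EE SUS mouse 6) gave r of 0.491 to 0.973.

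The correlations were of like size within groups. After each group's mean was subtracted, r was 0.461 to 0.976 with a median of 0.898. Within groups the median r was 0.890 in SH control, 0.939 in SH SUS, 0.906 in EE control, 0.898 in EE RES and 0.906 in EE SUS mice. In SH RES mice, which had the narrowest spread and numbered 7, it was 0.622, with pairs from -0.573 to 0.917. Over the 54 mice, the mean z-score had r of 0.181 with the total count, -0.0187 with the share of unmapped read pairs, -0.248 with that of read pairs outside genes and 0.211 with that of multimapping read pairs, which are descriptions without a test.

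Likeness to the 9 genes was then ranked over the other 18274 genes tested, by Pearson's r with the score over 54 mice. The median gene had r of -0.00, 49 genes exceeded 0.8 and 9 exceeded 0.9. Among the 10 highest were Ugt8a (r = 0.956), which makes galactosylceramide, Cldn11 (r = 0.947), the claudin of myelin tight junctions, Sept4 (r = 0.943), a septin, Bcas1 (r = 0.940), a marker of oligodendrocytes that are forming myelin, Lpar1 (r = 0.911), a receptor for lysophosphatidic acid, Tmem63a (r = 0.911), a mechanosensitive channel, Qdpr (r = 0.903), which recycles tetrahydrobiopterin, Tspan2 (r = 0.902), a myelin tetraspanin, and Gjc3 (r = 0.896), a connexin. After subtraction of group means the r of these genes was 0.883 to 0.951.

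Other genes of the lineage were grouped by list and compared between housings in the same fit. For 10 other proteins of the myelin sheath and its junctions, all 10 estimates were above 0 with a median of log2 0.19, and 7 had an unadjusted p below 0.05.

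Of 8 enzymes of myelin lipid synthesis none was called and 5 had an unadjusted p below 0.05, with estimates above 0 for all 8 and a median of log2 0.17. Ugt8a came closest among those named (log2 0.26 ± 0.08 SE, edgeR adjusted p = 0.0540), and Cers2, a ceramide synthase, was at log2 0.04 ± 0.03 (SE, edgeR adjusted p = 0.440). Of 12 other genes of mature oligodendrocytes none was called either and 8 had an unadjusted p below 0.05, with all 12 estimates above 0 and a median of log2 0.17, among them Car2, a carbonic anhydrase, at 0.12 ± 0.04 (SE, edgeR adjusted p = 0.0709) and Qdpr at 0.09 ± 0.05 (SE, edgeR adjusted p = 0.344). The score of the 9 genes followed the scores of these 3 lists closely over mice, with r of 0.975, 0.945 and 0.962 and rho of 0.965, 0.938 and 0.952.

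The list of lineage transcription factors and those of earlier stages had smaller medians. Of 7 transcription factors of the lineage, Olig2, which is needed to specify oligodendrocytes, was called, and it rose by log2 0.25 ± 0.06 in EE (SE, edgeR adjusted p = 0.0108). Olig2 ranged from 6.12 to 12.6 CPM in SH mice (median 9.76) and from 7.60 to 16.7 CPM in EE mice (median 11.3). It was also called between EE RES and SH RES mice, at log2 0.48 (edgeR adjusted p = 0.0407), and its r with the score of the 9 genes was 0.415. The median of these 7 factors was log2 0.05, with 5 estimates above and 2 below 0. An unadjusted p below 0.05 was found for 3 of the 7, with 2 above and 1 below 0. Of 9 genes of committed precursors and newly formed oligodendrocytes none was called, with a median of log2 0.06. Their unadjusted p was below 0.05 for 3 genes, 1 above and 2 below 0. These 3, named after their values were seen, were Bcas1 at log2 0.22 ± 0.07 (SE), Rras2 at -0.13 ± 0.04 and Mycl at -0.10 ± 0.04. Fyn and Itpr2, the most abundant of the 9, were at log2 0.02 ± 0.02 and 0.00 ± 0.03 (SE). Of 8 genes of oligodendrocyte precursor cells none was called or had an unadjusted p below 0.05, with 1 estimate above 0 and a median of log2 -0.03, and Pdgfra, the receptor that defines these cells, was at log2 -0.03 ± 0.03 (SE). Over mice, r with the score was 0.527 for the transcription factors, 0.112 for the newly formed cells and -0.0713 for the precursor cells (rho 0.539, 0.165 and -0.0406). Of 6 genes of Schwann cells, which make myelin in peripheral nerves, 3 passed the filter on low counts, none was called and 1 had an unadjusted p below 0.05 (Drp2, log2 -0.07 ± 0.02 SE, edgeR adjusted p = 0.0921). These 3 had a median of log2 -0.07.

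**Figure D4:**
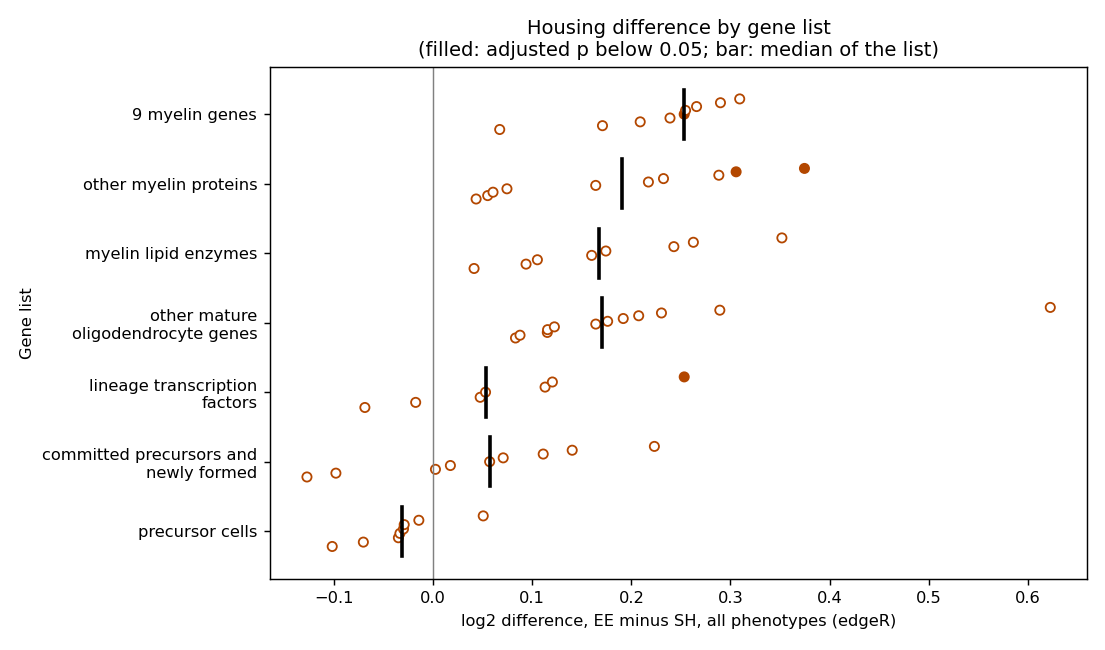
Difference in log2 expression between EE and SH mice over all phenotypes (edgeR) for each gene of 7 oligodendrocyte lists, with 1 circle per gene, filled at an adjusted p below 0.05, and a bar at the list's median. Medians lie at 0.17 to 0.25 for the 4 lists of myelin and mature cells and at -0.03 to 0.06 for the lists of lineage transcription factors, newly formed cells and precursor cells.

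Markers of dentate granule cells and of neighboring tissue also varied with the 9 genes, the former in the opposite direction. The score of 8 dentate granule cell genes had r of -0.712 and rho of -0.642 with the myelin score over 54 mice (r = -0.693 after group means were subtracted), and that of 6 CA3 pyramidal cell genes r of 0.673 and rho of 0.637 (r = 0.676). Within groups r with the granule cell score was -0.159 in SH control and 0.392 in SH RES mice and -0.729 to -0.854 in the other 4 groups. The r with the CA3 score was 0.331 in SH RES mice and 0.510 to 0.836 in the other 5. For choroid plexus, thalamus and endothelial lists r was 0.512, 0.456 and 0.405, and for astrocytes, microglia and CA1 pyramidal cells 0.134, 0.0295 and -0.0142. The plot of list scores shows 4 of these relations by mouse.

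**Figure D5:**
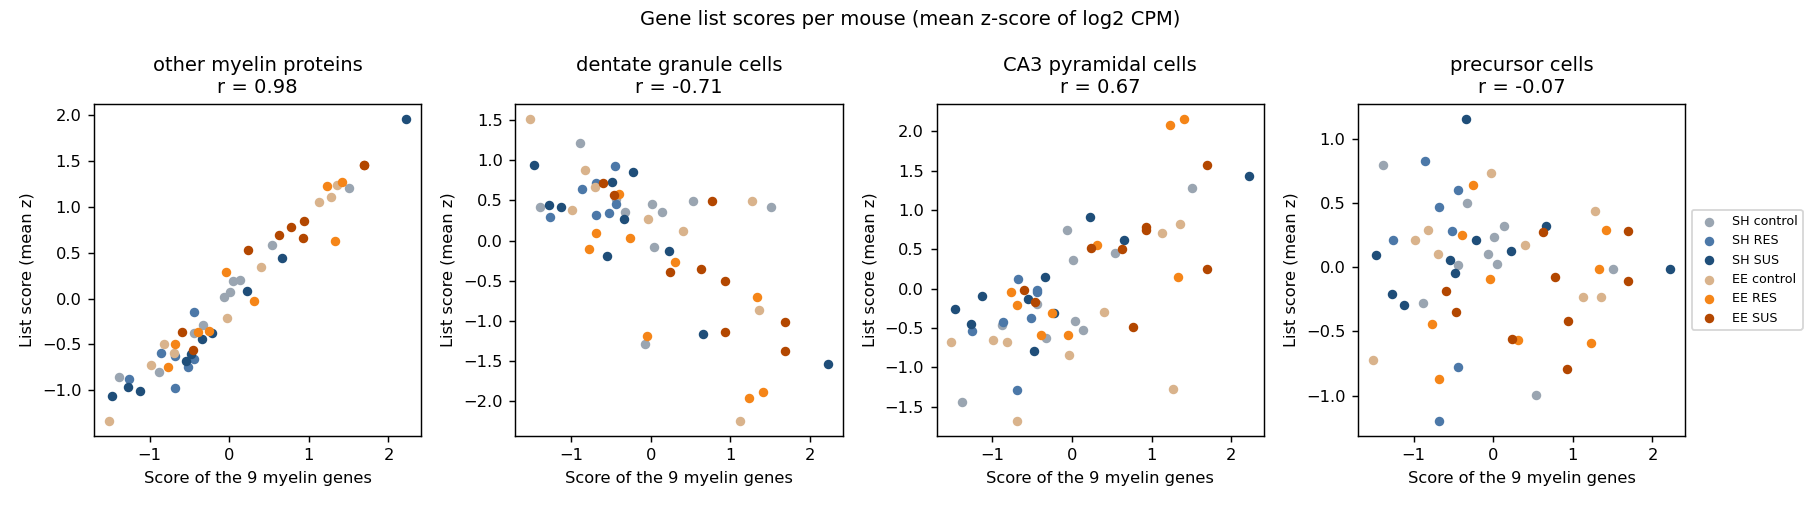
Score of 4 gene lists (mean z-score of log2 CPM, vertical axes) against the score of the 9 myelin genes (horizontal axes), with 1 point per mouse colored by group and Pearson's r over 54 mice above each panel. Other myelin proteins rise with the myelin score, dentate granule cell genes fall and CA3 genes rise with wide scatter, and precursor cell genes show no trend.

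The granule cell list also differed between housings. Its 8 genes were all below 0 in EE minus SH, with a median of log2 -0.13, and 2 of them fell, Tdo2, a tryptophan dioxygenase (log2 -0.28 ± 0.07 SE, edgeR adjusted p = 0.0214), and Dsp, a desmosomal protein (log2 -0.30 ± 0.08 SE, edgeR adjusted p = 0.0281). Between EE RES and SH RES mice 7 of the 8 had an unadjusted p below 0.05 in edgeR (16% of all genes), all below 0. Their median there was log2 -0.34, and none was called. For SUS and control mice 1 and 0 of the 8 had such a p, with medians of log2 -0.09 and -0.01. The summed level of the 8 genes was 1022 to 1717 CPM in SH and 910 to 1852 CPM in EE mice, with group medians of 1466, 1519 and 1457 CPM in SH control, RES and SUS and 1490, 1369 and 1259 CPM in EE control, RES and SUS mice. That of the 9 myelin genes had medians of 1082, 918 and 932 CPM in the SH groups and 1015, 1105 and 1297 CPM in the EE groups. Of the 6 CA3 genes none was called, 3 above and 1 below 0 had an unadjusted p below 0.05, and the medians of their sum were 441, 423 and 465 CPM in the SH and 412, 473 and 509 CPM in the EE groups. The EE RES and EE SUS groups, which had the highest medians of the myelin sum, had the lowest of the granule cell sum and the highest of the CA3 sum. With the granule cell and CA3 scores added to the model, an alternative chosen after seeing the data, the estimate of Mbp became log2 0.12 (edgeR adjusted p = 0.298), none of the 9 was called, and 4 had an unadjusted p below 0.05. In that fit 0.799% of all genes were called and 12.7% had an unadjusted p below 0.05. The part of tissue composition in the housing difference was not tested further.

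The choroid plexus list, whose defining gene Ttr has r of 0.465 with the myelin score, was high in some mice of every group but SH RES, where the sum of its 6 tested genes was 16.4 to 23.6 CPM against highest values of 304 to 974 CPM in the other groups. None of its 6 tested genes was called between housings or had an unadjusted p below 0.05 over all phenotypes. Between EE RES and SH RES mice 1 of the 6 had such a p in edgeR (16% of all genes), and none was called. Their median there was log2 2.05. For SUS and control mice 0 of the 6 had such a p between housings, with medians of log2 0.57 and -0.72. Of 7 thalamus genes none was called over all phenotypes, 1 had an unadjusted p below 0.05, and the median of their sum was highest in EE SUS mice, at 319 CPM, and 152 to 201 CPM in the other 5 groups. Between EE SUS and SH SUS mice all 7 had an unadjusted p below 0.05 in edgeR (7.36% of all genes). Their median there was log2 0.72, and none was called. For RES and control mice 0 of the 7 had such a p between housings, with medians of log2 0.36 and -0.32. In the interaction of defeat and housing 5 of the 7 did (6.47% of all genes), and none was called. With choroid plexus and thalamus scores in the model the estimate of Mbp was log2 0.19 (edgeR adjusted p = 0.0601) and 7 of the 9 had an unadjusted p below 0.05. In that fit 1.87% of all genes were called and 16.5% had an unadjusted p below 0.05. Over all phenotypes, all 6 endothelial genes had estimates above 0 with a median of log2 0.13. Of these 6, 5 had an unadjusted p below 0.05 in edgeR (17.6% of all genes). Flt1, a receptor for vascular endothelial growth factor, was the only 1 called, and it rose in EE (log2 0.23 ± 0.06 SE, edgeR adjusted p = 0.0186). Of 6 genes each for astrocytes, microglia and CA1 pyramidal cells none was called and 2, 3 and 0 had an unadjusted p below 0.05, with medians of log2 -0.00, 0.06 and 0.09.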

How the data were processed

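The 55 RNA libraries of ventral dentate gyrus from 54 mice were put into groups by their GEO labels. Per the paper, the libraries were made with a stranded total RNA kit, sequenced in pairs and aligned with STAR to GRCm38, and genes were quantified with featureCounts, but the tables deposited by the authors have the layout of STAR gene counts. The labels name mm10, STAR and Picard without versions. The values deposited by the authors are raw counts of read pairs per gene, not normalized, in an unstranded, a forward and a reverse column, and the reverse column was used because 3.51% to 4.13% of stranded counts were forward. Rows for unmapped (13.9% to 19.9% of read pairs), multimapping (8.70% to 12.1%), unassigned (19.9% to 28.8%) and ambiguous (0.836% to 1.12%) read pairs entered neither library sizes nor tests. Of 45318 identifiers, 44671 matched the annotation.

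Counts were normalized by TMM and filtered with filterByExpr in edgeR 4.0.16 (R 4.3.3), which left 18283 genes and all 9 myelin genes. Differences were tested with edgeR's quasi-likelihood test on 6 group means over 54 mice, as 14 contrasts and 1 test of any difference, with Benjamini-Hochberg adjustment over all genes and calls at an adjusted p below 0.05. The design of the study, limma-voom (limma 3.58.1), and DESeq2 1.42.0 were alternatives, as were size factors, unstranded counts, no filter, a filter that asked for 1 CPM in 7 or more mice, the replicate number as a block, marker scores as covariates, the first run only of the mouse with 2 runs, and each mouse left out. The methods give a smaller number of replicates per group without naming mice, so all were used. The study drew its mice from several litters, but the labels give no litter or cage for each mouse, so neither entered the models. Scores are mean z-scores of log2 CPM with a prior count of 2. Correlations used two-sided permutation tests with 100000 resamples. Counts limit precision by counting error only. Python 3.11.15, NumPy 2.4.6, pandas 2.3.3, SciPy 1.17.1 and matplotlib 3.10.9 were used.

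The 9 genes and the lists were chosen with earlier results of these data known. Named besides them are genes of each list past an adjusted p of 0.05, otherwise, for lists of the lineage, 1 or both of the 2 of highest mean CPM, and the 10 genes with the highest r with the myelin score. Some genes that meet this rule are not reported here. The lists were written from general knowledge for other myelin proteins, myelin lipid enzymes, other mature oligodendrocyte genes, lineage transcription factors, newly formed oligodendrocytes, precursor cells, Schwann cells, dentate granule, CA1 and CA3 cells, thalamus, choroid plexus, astrocytes, microglia and endothelial cells.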

Additional observations from a re-analysis of the deposited data

Results flagged for a closer look

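In 8 of 60 tests of a group's highest or lowest mouse for a gene or for the mean z-score, 1 mouse stood far from the rest of its group by Dixon's criterion, where chance gives about 1 in 20 for a single test. The 60 tests share mice and correlated genes, so their count cannot be weighed against that rate. SH SUS mouse 3 was the highest of its group for 4 genes, with Mobp at 441 CPM (next 271), Cnp at 198.0 CPM (next 144), Mal at 160.1 CPM (next 93.3) and Mog at 28.9 CPM (next 18.1). SH control mouse 10 was the highest for Mbp, at 722 CPM (next 571), and for Ermn, at 37.4 CPM (next 27.7). Among SH RES mice, mouse 4 was highest for Mag at 55.5 CPM (next 47.6), and mouse 6 was lowest for Mog at 11.2 CPM (next 13.1). Leaving out SH SUS mouse 3 raised the number of the 9 genes called higher in EE over all phenotypes to 6, with 4.02% of all genes called, and leaving out SH control mouse 10 raised it to 3, with 3.22% (edgeR).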

How the results depend on the processing

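In the comparison of EE with SH over all phenotypes, the count of 1 called gene among the 9 became 0 with limma-voom (Mbp log2 0.24, adjusted p = 0.0548), with no low-count filter (0.25, 0.0636), with unstranded counts (0.25, 0.0536), with choroid plexus and thalamus scores as covariates (0.19, 0.0601) and with granule cell and CA3 scores as covariates, added after seeing the data (0.12, 0.298), where Opalin reversed to log2 -0.063. It stayed at 1 with size factors, with DESeq2, with the filter of 1 CPM and with the first run only. The share of all genes called, 2.42% in the reported fit, was 0.733% with no filter, 0.799% with granule cell and CA3 scores, 1.75% with unstranded counts and 1.87% to 3.72% in the other settings. The number of an unadjusted p below 0.05 was 8 of 9 in each of these but the 2 with covariates, at 7 and 4. The share of all genes with such a p was 16.5% and 12.7% in those 2 fits, and 12% to 19% in the other settings. With the replicate number as a block the count of called genes was 3 (Mbp, Mag and Ermn, edgeR adjusted p = 0.0261, 0.0460 and 0.0499). Between EE RES and SH RES mice that block raised the share of all genes called from 0.273% to 1.25%. Deviations of same-numbered mice of different groups had a median r of 0.0188 over 126 pairs, 27 of them above 0.1, against -0.00342 over 1086 pairs of different number, 130 of them above 0.1. These correlations cannot decide whether the numbers mark a pairing, since single pairs scatter widely in both sets. No label ties the numbers to a litter or day, so the block was kept as an alternative only. Leaving out each mouse in turn gave 0 to 6 called genes, 0 in 38 fits, 1 in 10, 2 in 3 (without EE control mouse 2 or 8, or EE SUS mouse 7), 3 in 2 (without SH control mouse 10 or EE SUS mouse 9) and 6 in 1 (without SH SUS mouse 3). The share of all genes called was 2.42%, 3.56% and 2.83% in the 3 fits with 2, in that order. It was 3.22% and 3.5% in the 2 fits with 3, 4.02% in the fit with 6, and 1.39% to 4.02% over all 54 fits. The estimate of Mbp stayed at log2 0.23 to 0.28 in these fits. In every other comparison none of the 9 was called under any of these settings. The cause of these changes was not tested. The counts of Opalin and Myrf, the lowest of the 9, limit their precision most.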

Other observations

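The genes running most opposite to the 9 myelin genes over the 54 mice, named after their values were seen, were Cnih3 (r = -0.805 with the mean z-score), an auxiliary subunit of AMPA receptors, Grhl1 (r = -0.801), a transcription factor, Gpc4 (r = -0.801), a glypican, Slc24a4 (r = -0.777), a sodium, calcium and potassium exchanger, and Htr1a (r = -0.775), a serotonin receptor. After subtraction of group means their r was -0.790 to -0.734. Of the 9 genes relative to the mean of the other 8, Opalin had the lowest log2 difference between EE and SH, at -0.18, and Mobp the highest, at 0.09. Bcas1, listed with newly formed oligodendrocytes, had r of 0.940 with the mean z-score, whereas Rras2 and Mycl of the same list, also named after their values were seen, had r of -0.691 and -0.474.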
